A study of Mus musculus with 10 samples.

Results

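The phospholipase C genes described here are *Plch1*, *Plch2*, *Plcb1*, *Plcb3*, *Plcb4*, *Plcd1*, *Plcd3*, *Plce1*, *Plcg1* and *Plcg2*, which are 10 of the 22114 protein-coding genes counted. The group was formed around *Plch2*, chosen by its difference between the genotypes in these libraries, where it took rank 3 of 14561 tested genes when ordered by strength of evidence. For that reason the genotype difference of *Plch2* is given as a description, without a test. The other 9 genes belong to the group by family name. All 10 had enough reads to be tested.

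RNA was sequenced from the first pharyngeal arch (PA1), the embryonic tissue that forms the jaws and palate, of 5 wild-type (Grhl2+/+) and 5 Grhl2-/- mouse embryos at E10.5. The strain background was C57BL/6 (C57BL/6J in the methods of the study), and all of these embryos were male. *Grhl2* encodes grainyhead-like 2, a transcription factor of epithelia, and the null allele is present in every cell of the mutant embryo. Each arch was a separate library of ribosome-depleted total RNA that kept strand information, made from whole tissue in which surface epithelium, neural crest mesenchyme and other cells are mixed.

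Total counts per arch ranged from 22188454 to 28801378. *Grhl2* itself, as a check of the labels, ranged from 31.8 to 40.5 CPM (read counts scaled to a common library size after TMM normalization) in wild-type and from 2.80 to 6.33 CPM in mutant arches. Of 15 epithelial marker genes, 11 passed FDR 0.01 in limma-voom with a lower level in the mutant, as did 1.09% of all tested genes. The summed level of 10 sensory neuron markers varied widely within both genotypes, from 39.5 to 837 CPM in wild-type against from 273 to 1046 CPM in mutant arches. The labels carry a number that some arches of both genotypes share, without saying whether it marks a litter, and FDR values measure the spread between these arches.

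Phospholipase C enzymes cleave the membrane lipid PIP2 into IP3, which releases calcium from internal stores, and diacylglycerol, which activates protein kinase C. The isoforms differ in what switches them on: the β enzymes answer to Gq-coupled receptors, the γ enzymes to receptor tyrosine kinases, the ε enzyme to Ras GTPases, and the δ and η enzymes are sensitive to calcium. In the first arch the best known member is *Plcb4*, which acts downstream of endothelin signalling in patterning the lower jaw.

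The promoters of the η pair, *Plch1* and *Plch2*, are shown because these are the 2 members whose level differed most between the genotypes. *Plch2* lies on the minus strand of chromosome 4 (154983115 to 155056784, GRCm38, GENCODE) and *Plch1* on the minus strand of chromosome 3 (63696234 to 63899472). Each has 2 promoters of 300 bases in RefSeq (GRCm38.p6), from 250 bases before to 50 bases after a transcript start. Capitals mark a match to a searched motif.
Plch2, chr4:155010976-155011275, minus strand: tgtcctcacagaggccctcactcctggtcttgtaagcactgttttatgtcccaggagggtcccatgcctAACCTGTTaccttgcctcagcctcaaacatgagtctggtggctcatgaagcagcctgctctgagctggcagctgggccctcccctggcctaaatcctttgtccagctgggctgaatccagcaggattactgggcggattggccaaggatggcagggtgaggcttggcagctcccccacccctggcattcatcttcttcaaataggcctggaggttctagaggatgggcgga
Plch2, chr4:155019379-155019678, minus strand: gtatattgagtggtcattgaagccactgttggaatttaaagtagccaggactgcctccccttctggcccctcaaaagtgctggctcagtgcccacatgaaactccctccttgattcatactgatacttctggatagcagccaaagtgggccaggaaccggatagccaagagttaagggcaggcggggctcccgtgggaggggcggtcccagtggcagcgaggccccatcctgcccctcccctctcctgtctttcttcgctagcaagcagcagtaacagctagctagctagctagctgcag
Plch1, chr3:63851236-63851535, minus strand: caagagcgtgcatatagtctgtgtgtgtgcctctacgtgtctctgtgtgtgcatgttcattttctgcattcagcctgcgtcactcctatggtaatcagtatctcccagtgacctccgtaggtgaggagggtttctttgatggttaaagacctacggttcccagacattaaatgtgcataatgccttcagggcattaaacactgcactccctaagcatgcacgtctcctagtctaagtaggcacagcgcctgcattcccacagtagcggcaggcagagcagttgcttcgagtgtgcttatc
Plch1, chr3:63899413-63899712, minus strand: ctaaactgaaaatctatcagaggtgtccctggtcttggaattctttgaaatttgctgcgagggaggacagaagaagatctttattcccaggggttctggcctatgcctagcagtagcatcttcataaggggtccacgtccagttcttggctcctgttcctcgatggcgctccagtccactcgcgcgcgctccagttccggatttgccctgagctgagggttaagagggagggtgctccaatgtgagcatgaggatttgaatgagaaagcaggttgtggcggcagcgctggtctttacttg
Both strands were searched for AACCGGTT, the core to which grainyhead-like factors bind, for the looser AACCNGTT, which includes it, and for CACCTG, the E-box bound by ZEB and SNAI repressors. AACCGGTT was found in 0.146% of 32851 RefSeq promoters of this length and in 0 of the 14 promoters of the 10 genes. AACCNGTT was found in 2.09% of all promoters and in 1 of the 14, the downstream *Plch2* promoter, where it starts at base 70 and is in capitals above. CACCTG was found in 20.2% of all promoters and in 4 of the 14, those of *Plcb3*, *Plcb4*, *Plcg1* and *Plcg2*. Both *Plch2* starts lie inside the GENCODE gene, which extends further upstream.

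*Plch2* encodes phospholipase C η2, a calcium-sensitive isoform best known from neurons. In the wild-type arches 1-566, 1-568, 3-588, 5-566 and 8-568 it had 108, 121, 130, 131 and 110 reads. In the Grhl2-/- arches 1-588, 1-628, 2-566, 2-568 and 3-604 it had 9, 9, 10, 6 and 4 reads. The highest mutant arch, with 10 reads, was far below the lowest wild-type arch, with 108, and the groups did not overlap.

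The mean level of *Plch2* was 4.60 CPM ± 0.23 (SD, n = 5) for wild-type arches and 0.277 CPM ± 0.088 (SD, n = 5) for mutant arches. The log2 fold change was -4.02 (SE 0.21, 95% CI -4.49 to -3.55), which is 16.2-fold lower. This interval does not allow for the choice of the gene on the same difference. With 4 to 10 reads per mutant arch, the remaining level is known less precisely than the wild-type one: its coefficient of variation was 31.8%, against 5.00% in wild-type. The gene ranked 12th of 14561 by how negative its fold change was. In the order by evidence *Fat2* (log2 fold change -3.41) and *Fermt1* (-2.24) stood just before it, and *Epha2* (1.08) and *Cldn4* (-3.32) just after.

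The log2 fold change was negative in all 15 epithelial markers, as for *Plch2*. Of these, 11 passed FDR 0.01 in limma-voom, where 1.09% of all tested genes were called lower. The 4 that did not pass had overlapping groups and include the most abundant ones, with log2 fold changes of -0.07 for *Krt18*, -0.24 for *Trp63*, -0.31 for *Cdh3* and -0.40 for *Krt8*. The summed level of the 15 was between 454 and 588 CPM in wild-type against between 248 and 367 CPM in mutant arches, and none was at 0. *Cdh1*, which encodes E-cadherin, had a log2 fold change of -2.47 (95% CI -2.87 to -2.06) and *Epcam*, an epithelial adhesion molecule, one of -2.51 (95% CI -2.89 to -2.12). The markers' part in the *Plch2* difference was not tested, and in whole arches fewer cells of a type and less RNA per cell cannot be told apart.

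The genes whose profile over the 10 arches was nearest to that of *Plch2* were *Trim29*, *Cldn8*, *Arhgef19*, *Ap1m2* and *Fat2*, among 12601 genes with a wild-type mean of at least 1 CPM. Likeness was the root mean square difference of log2 CPM after each gene's wild-type mean was subtracted, and it ranged from 0.26 for *Trim29* to 0.51 for *Fat2*. This measure mostly picks genes with a genotype difference of similar size, the difference on which *Plch2* was chosen. The log2 fold changes of the 5 ranged from -4.09 for *Trim29* to -3.41 for *Fat2*. *Trim29* went from 9.44 CPM ± 1.31 to 0.538 CPM ± 0.110 (SD, n = 5 each). *Cldn8*, a tight junction claudin, went from 4.17 CPM ± 0.58 to 0.320 CPM ± 0.10. The 3 nearest tested genes on each side of *Plch2* on the chromosome were *Tnfrsf14*, *Hes5* and *Pank4* on one side and *Pex10*, *Rer1* and *Morn1* on the other. None of these 6 passed the test, where 1.09% of all genes were called lower and 0.879% higher. Each had overlapping groups, where 4.66% of all genes had all mutant arches lower and 4.22% all higher. Among so few genes, counts of 0 lie near these shares. The lowest FDR in limma-voom was 0.204 for *Hes5*. Levels were low for *Hes5* (0.245 CPM in wild-type and 0.629 in mutant arches) and *Tnfrsf14* (0.725 and 0.656 CPM). *Pank4*, 2.18 kb away, measured 59.8 CPM in both genotypes.

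*Plch1* encodes η1, the only other enzyme of the η class, and it was higher in the mutant. In the wild-type arches, in the same order as above, it had 370, 503, 616, 501 and 413 reads. In the Grhl2-/- arches it had 1415, 865, 1010, 922 and 906 reads. Every mutant arch was above every wild-type arch, and arch 1-588 stood above the other mutants.

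The mean level of *Plch1* was 18.3 CPM ± 1.93 for wild-type and 37.3 CPM ± 7.40 for mutant arches (SD, n = 5 each). *Plch1* rose by a log2 fold change of 1.01 (SE 0.13, 95% CI 0.74 to 1.29), or 2.02-fold, with FDR = 0.000902 in limma-voom over all 14561 genes. Leaving out arch 1-588 gave a log2 fold change of 0.89. The sensory neuron markers of that arch summed to 273 CPM, the lowest of the mutants, and its endothelial markers to 469 CPM, the highest of all arches. Its muscle markers, at 68.3 CPM, were also the highest of all arches, and its mesenchyme markers, at 2181 CPM, the lowest. Endothelial marker sums ranged from 362 to 411 CPM in wild-type and from 402 to 469 CPM in mutant arches. In limma-voom 0 of 8 endothelial markers were called, against 1.09% of all genes lower and 0.879% higher. At FDR below 0.05, 2 of the 8 were higher, *Pecam1* (FDR = 0.0257) and *Kdr* (FDR = 0.0305), against 3.84% of all genes. The log2 fold change was positive in 7 of the 8. The part of these and the other markers in the *Plch1* difference was not tested. With the sensory neuron markers as a covariate the log2 fold change was 1.03. The exons of *Plch1* overlapped no other annotated gene, and those of *Plch2* shared 189 bases with an antisense gene on the opposite strand, which counting by strand keeps apart. No stretch of 50 bases, the read length, was shared between *Plch1* and *Plch2* transcripts.

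**Figure D1:**
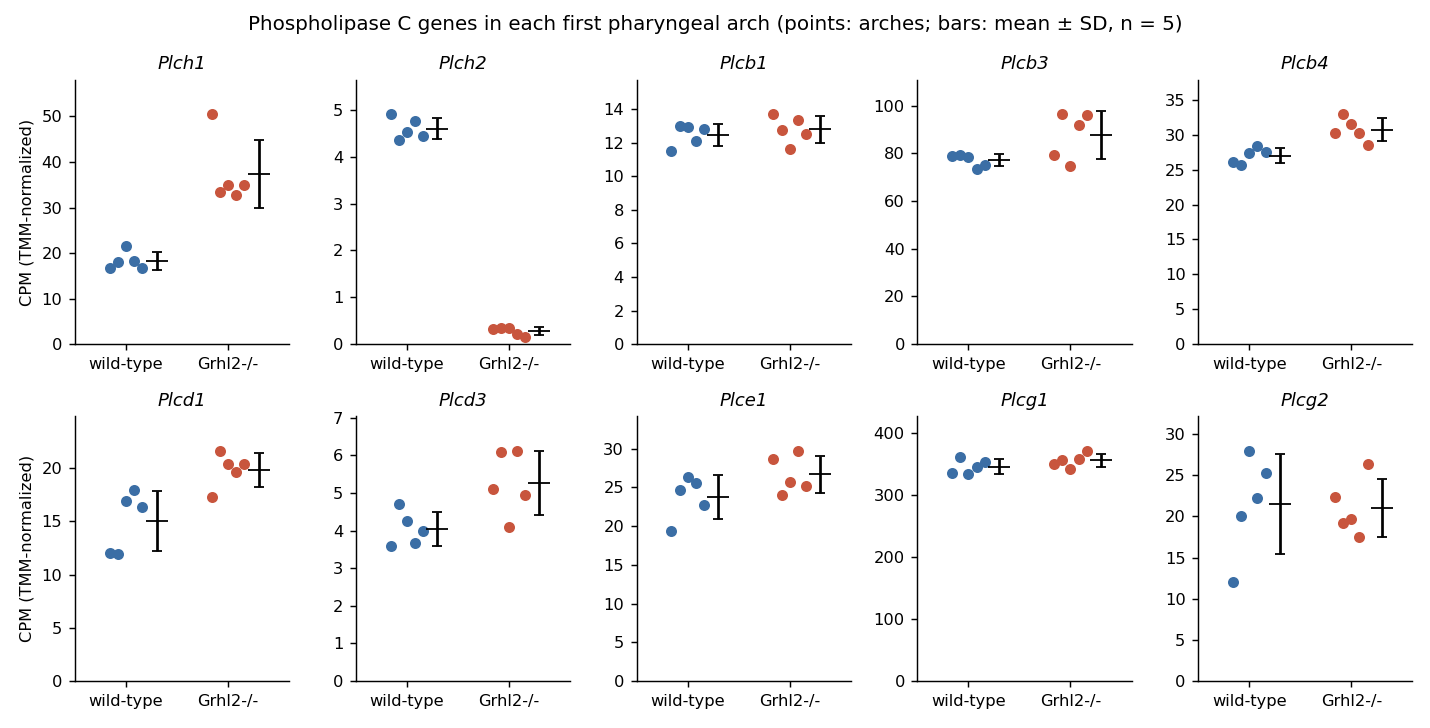
CPM of the 10 phospholipase C genes in each arch, with points for arches and bars for mean ± SD (n = 5 per genotype) and every axis starting at 0. *Plch2* is near 0 in the Grhl2-/- arches, *Plch1* is higher in all 5 of them, and the groups overlap in the other panels except *Plcb4*.

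The balance between the η genes was compared within each arch, where library scaling cancels. There were 3.43 to 4.74 *Plch1* reads per *Plch2* read in wild-type and 96.1 to 226 in Grhl2-/- arches. Per length, *Plch2* made up 18.3% to 23.7% of the η RPKM (reads per kilobase of exon, scaled like CPM) in wild-type and 0.468% to 1.10% in Grhl2-/- arches. The RPKM of both genes together was higher in the mutant, at 3.82 to 5.88 against 2.48 to 3.04, so the gain of *Plch1* exceeded the loss of *Plch2* in reads per length. In both genotypes the arch highest for *Plch1* had the median *Plch2* level of its group, with 4.53 CPM for wild-type 3-588 and 0.321 CPM for mutant 1-588.

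**Figure D2:**
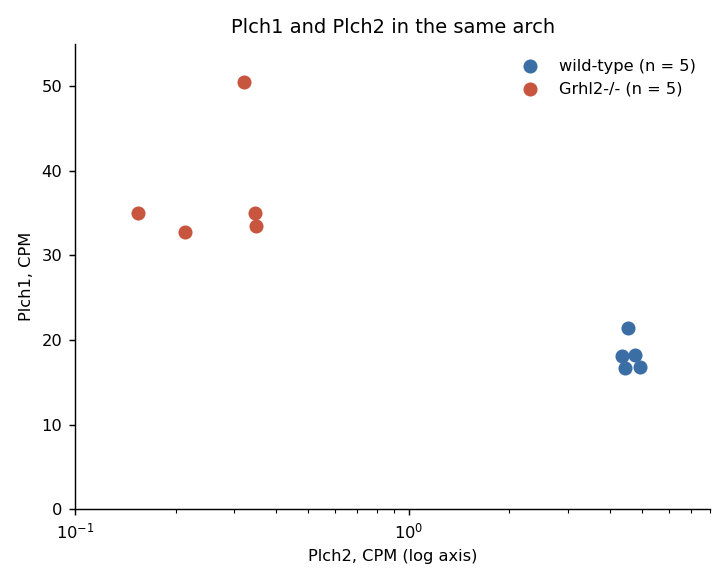
*Plch1* CPM against *Plch2* CPM (log axis), each point 1 arch. The 5 wild-type arches lie together at 4.35 to 4.91 CPM of *Plch2*, and the 5 Grhl2-/- arches at 0.154 to 0.349 CPM, with one of them at 50.5 CPM of *Plch1*.

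No β isoform passed the test. *Plcb4* measured 26.1, 25.6, 27.3, 28.3 and 27.5 CPM in the wild-type arches against 30.2, 32.9, 31.6, 30.2 and 28.6 CPM in the Grhl2-/- arches, so that all mutants were above all wild-types by a narrow margin. Its log2 fold change of 0.18 (95% CI 0.07 to 0.30) had FDR = 0.0498 in limma-voom and did not pass the threshold of 0.01. *Plcb3*, the β isoform with the highest level per length, measured 77.0 CPM ± 2.56 and 87.6 CPM ± 10.1 (FDR = 0.141 in limma-voom). Its mutant arches were spread from 74.5 to 96.3 CPM and overlapped with the wild-type range of 73.4 to 79.2 CPM. *Plcb1* measured 12.5 CPM ± 0.65 and 12.8 CPM ± 0.81, with a 95% CI of -0.11 to 0.18 for its log2 fold change (FDR = 0.779 in limma-voom).

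The γ isoforms did not pass the test either. *Plcg1*, which docks on activated growth factor receptors, was the most abundant member per length, with 346 CPM ± 11.6 in wild-type against 355 CPM ± 10.8 in mutant arches. The 95% CI of its log2 fold change, -0.04 to 0.12, was narrow (FDR = 0.468 in limma-voom). *Plcg2*, better known from blood cells, measured 12.1, 20.02, 28.0, 22.3 and 25.2 CPM in wild-type against 22.4, 19.2, 19.7, 17.4 and 26.4 CPM in mutant arches. These groups overlapped throughout, and the 95% CI of -0.44 to 0.40 leaves room for a change in either direction (FDR = 0.961 in limma-voom).

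Both δ isoforms had positive fold changes that missed the threshold. *Plcd1* measured 12.04, 11.9, 16.9, 18.0 and 16.4 CPM in wild-type against 17.3, 21.6, 20.4, 19.7 and 20.3 CPM in mutant arches. Its log2 fold change was 0.41 (95% CI 0.15 to 0.67, FDR = 0.0566 in limma-voom), and the groups overlapped because wild-type arch 5-566 was above mutant arch 1-588. The wild-type arches 1-566 and 1-568, lowest for *Plcd1*, also had the lowest sensory neuron marker sums, 46.7 and 39.5 CPM. They likewise had the lowest glia marker sums, 49.1 and 46.1 CPM, and the highest mesenchyme marker sums, 3060 and 2795 CPM. With the sensory neuron markers as a covariate the log2 fold change of *Plcd1* was 0.22 (FDR = 0.0994 in limma-voom). The part of any of these markers in the *Plcd1* difference was not tested. *Plcd3* measured 4.04 CPM ± 0.46 and 5.27 CPM ± 0.85, a log2 fold change of 0.36 (95% CI 0.07 to 0.65, FDR = 0.112 in limma-voom). *Plce1*, the Ras effector, measured 23.8 CPM ± 2.82 and 26.7 CPM ± 2.41 (FDR = 0.246 in limma-voom).

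Of the 9 members other than *Plch2*, 1 was called higher at FDR below 0.01, *Plch1*, and 0 lower in limma-voom, while over all tested genes 0.879% were called higher and 1.09% lower. All mutant arches were above all wild-type arches in 2 of these 9, *Plch1* and *Plcb4*, and below them in 0, against 4.22% and 4.66% of all genes. *Plch2*, whose lower level the choice of the group fixed, is not counted in these numbers. The median log2 fold change was 0.17 over all 10 members, *Plch2* included, and 0.01 over all tested genes.

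**Figure D3:**
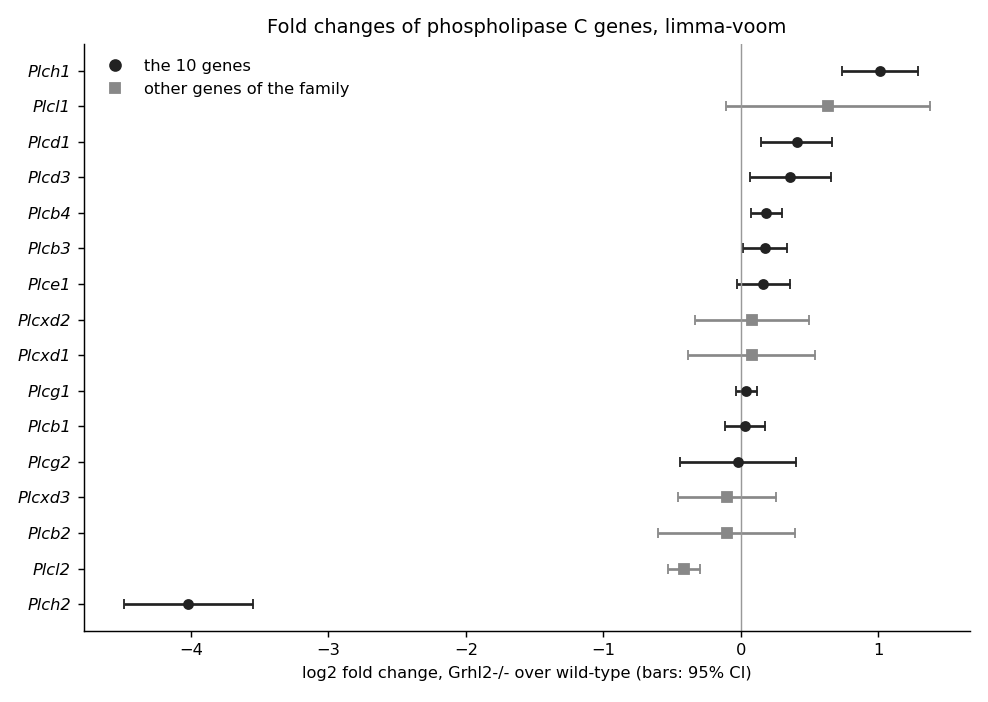
Log2 fold change of Grhl2-/- over wild-type PA1 with its 95% CI for the 16 tested phospholipase C genes, from limma-voom. The interval of *Plch2* does not allow for its choice on this difference. *Plch2* at -4.02 stands far to the left, *Plch1* at 1.01 to the right, and among the 10 genes the intervals of *Plcb1*, *Plcg1*, *Plcg2* and *Plce1* include 0, as do those of the further genes other than *Plcl2*.

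Levels were compared between genes as RPKM over the union of GENCODE exons. In wild-type PA1 the order was *Plcg1* at 44.0 RPKM, *Plcb3* at 11.1, *Plcg2* at 5.01, *Plcd1* at 4.86, *Plcb4* at 3.01, *Plch1* at 2.11, *Plce1* at 1.48, *Plcd3* at 1.19, *Plcb1* at 1.12 and *Plch2* at 0.567. *Plcg2* and *Plcd1* overlapped between arches, as did *Plce1* with *Plcd3* and *Plcd3* with *Plcb1*. The other neighbours in this order were separate. *Plcg1* alone made up 55.96% to 61.4% of the summed RPKM of the 10 genes, and *Plch2* 0.711% to 0.871%.

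In Grhl2-/- PA1 *Plch1*, at 4.32 RPKM ± 0.86 (SD, n = 5), was above *Plcb4* at 3.42 RPKM ± 0.18 in every arch, the reverse of the wild-type order. This depends on the length used: over the longest transcript *Plch1* was at 5.69 and *Plcb4* at 5.88 RPKM in the mutant, as in the wild-type order. *Plch2*, at 0.0341 RPKM ± 0.0108, was last of the 10 in both genotypes. Its mutant arches overlapped with the level of *Plcd4*, a gene with too few reads to be tested. With the longest transcript as the length, the wild-type order of *Plcg2*, *Plcd1* and *Plcb4* changed to *Plcd1*, *Plcb4* and *Plcg2*, at 5.54, 5.17 and 5.01 RPKM, and *Plcb1* moved above *Plcd3*.

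**Figure D4:**
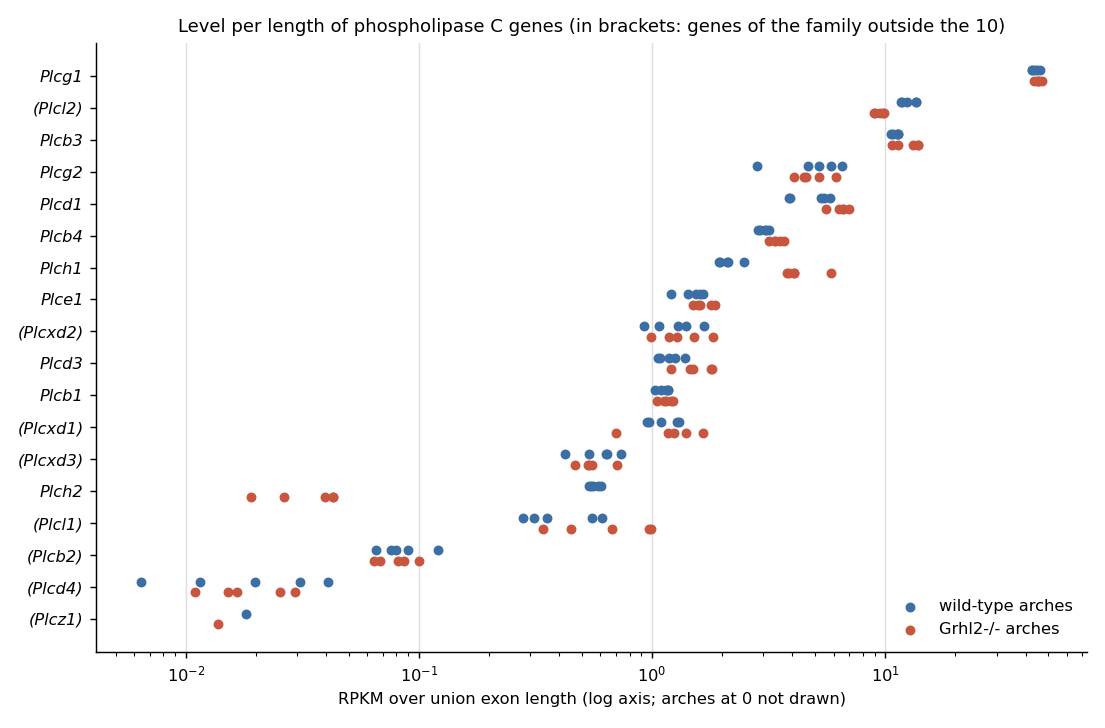
RPKM over union exon length (log axis) in every arch for the 10 genes and, in brackets, 8 further genes of the family, ordered by wild-type mean. *Plcg1* is highest near 44.0 RPKM, and *Plch2* moves from beside *Plcxd3* in wild-type to beside *Plcd4* in Grhl2-/- arches.

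Of 8 further genes of the family, 6 were tested. *Plcl2*, which encodes a catalytically inactive relative that binds IP3, measured 89.6, 89.8, 78.1, 82.2 and 77.6 CPM in wild-type against 65.4, 60.1, 64.6, 59.3 and 62.8 CPM in mutant arches. It fell by 0.41 on the log2 scale (95% CI -0.53 to -0.30, FDR = 0.00111 in limma-voom), and the groups did not overlap. The other inactive relative, *Plcl1*, measured 2.81 CPM ± 0.99 and 4.57 CPM ± 1.98 (FDR = 0.240 in limma-voom). *Plcb2*, *Plcxd1*, *Plcxd2* and *Plcxd3* did not pass, with log2 fold changes between -0.10 and 0.08. *Plcd4* and *Plcz1*, the sperm isoform, had at most 8 and 1 reads in any arch and were not tested.

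The genes upstream of the β isoforms gave 0 calls among 8 tested in limma-voom, against 1.09% of all genes lower and 0.879% higher. DESeq2 called 1 of the 8 higher, and 3.80% of all genes lower and 3.57% higher. The median log2 fold change in limma-voom was 0.11 over the 8 genes and 0.01 over all tested genes. *Ednra*, the endothelin receptor of neural crest mesenchyme, measured 33.5 CPM in wild-type against 29.5 CPM in mutant arches (FDR = 0.386 in limma-voom). *Ednrb*, the other endothelin receptor, measured 21.5 and 39.0 CPM with overlapping groups (log2 fold change 1.10, FDR = 0.155 in limma-voom). The ligand gene *Edn1* measured 1.72 and 2.95 CPM (FDR = 0.326 in limma-voom). *Ece1*, which matures the ligand, measured 139 CPM ± 7.20 and 157 CPM ± 5.10 (log2 fold change 0.18, FDR = 0.0296 in limma-voom). The G protein subunit genes *Gnaq* and *Gna11* measured 108 against 111 CPM and 85.2 against 78.9 CPM.

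Among 15 tested genes that make or transport the substrate PIP2, 1 was called lower and 0 higher, against 1.09% and 0.879% of all genes, with a median log2 fold change of -0.05. DESeq2, voomWithQualityWeights and the fit without mutant arch 1-588 each called 1 higher, and over all genes 520, 204 and 136 higher. *Cds1*, which makes the CDP-diacylglycerol used in phosphoinositide synthesis, had 54, 73, 59, 66 and 68 reads in wild-type and 31, 29, 37, 52 and 25 reads in Grhl2-/- arches. The groups did not overlap, and the level fell by 0.97 on the log2 scale (95% CI -1.35 to -0.58, FDR = 0.00907 in limma-voom). The call was kept in 1 of 10 fits that left out an arch, the FDR over these ranging from 0.00385 to 0.0269 in limma-voom. Its paralog *Cds2*, with 111 CPM ± 2.13 in wild-type against 135 CPM ± 12.4 in mutant arches, missed the threshold in the other direction (log2 fold change 0.28, FDR = 0.0181 in limma-voom).

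Downstream, 0 of 18 genes of the IP3 and store calcium arm and 0 of 20 tested genes of the diacylglycerol arm were called in limma-voom at FDR below 0.01, where 1.09% of all genes were called lower and 0.879% higher. Among so few genes, counts of 0 lie near these shares. At FDR below 0.05 the IP3 arm had 1 lower and 2 higher, and the diacylglycerol arm 0 lower and 1 higher, where 3.87% of all genes were lower and 3.84% higher. DESeq2 called 1 lower and 2 higher in the IP3 arm and 1 higher in the diacylglycerol arm, and 3.80% of all genes lower and 3.57% higher. The median log2 fold change was 0.03 in both lists. Of the IP3 receptor genes, which form the calcium release channels, *Itpr1* measured 118 CPM ± 10.9 and 139 CPM ± 14.1 (FDR = 0.0897 in limma-voom) and *Itpr2* 16.0 and 23.3 CPM, with all mutant arches above all wild-type arches (FDR = 0.0474 in limma-voom). *Itpr3* measured 22.4 and 33.3 CPM (FDR = 0.0578 in limma-voom). *Impa1*, an inositol monophosphatase that recycles inositol, measured 87.9 and 76.4 CPM, with all mutant arches below all wild-type arches (log2 fold change -0.20, FDR = 0.0454 in limma-voom). The protein kinase C gene *Prkcb* measured 2.44 and 4.01 CPM (FDR = 0.0282 in limma-voom), and *Prkd3*, the most abundant gene of its list in reads, 321 and 303 CPM (FDR = 0.143 in limma-voom).

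**Figure D5:**
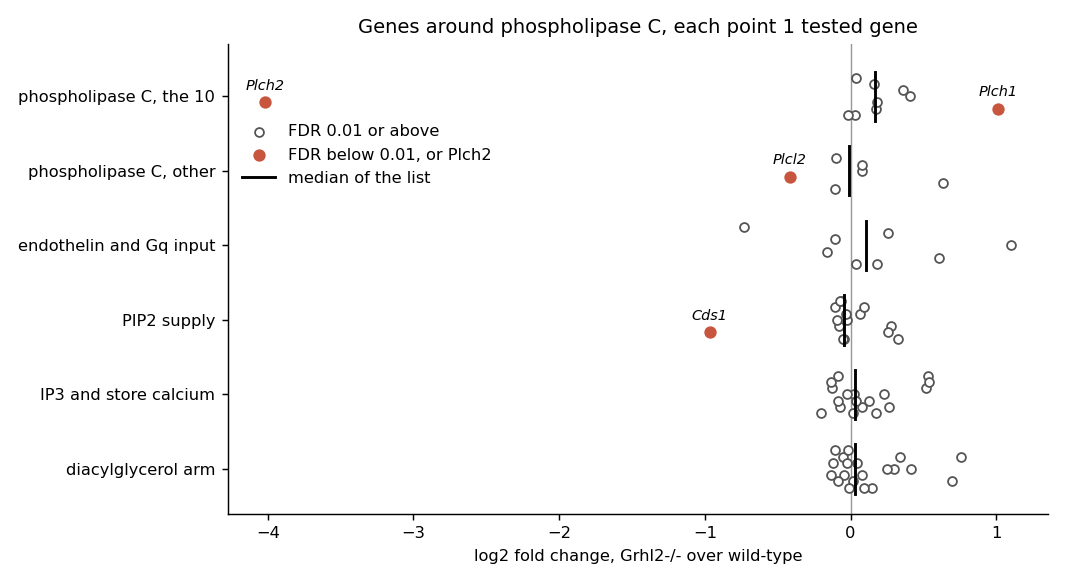
Log2 fold change of Grhl2-/- over wild-type PA1 for each tested gene of 6 lists around phospholipase C, with the list median as a bar. The median of the 10 members includes *Plch2*. Filled points are *Plch2* and the genes at FDR below 0.01 in limma-voom, which are *Plch1*, *Plcl2* and *Cds1*.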

How the data were processed

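RNA from 10 arches, 5 per genotype, was sequenced. Per the labels and the study's methods, the authors used STAR for alignment to GRCm38 and featureCounts for counting, and deposited raw counts per gene. The submitters' processing notes name edgeR 3.18.1 and limma 3.32.7, and the versions of STAR and featureCounts and the annotation are not given in the sources used here. A second deposited table holds the authors' own fold changes, average expression and adjusted p-values and was not used. Groups came from the genotype label.

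A gene was kept when its highest count reached 10, which left 14561 of 22114. Counts were normalized by TMM and tested with limma-voom (limma 3.58.1, edgeR 4.0.16, R 4.3.3), genotype being the only term, with Benjamini-Hochberg adjustment over all tested genes and a call at FDR below 0.01. The fit was first tested on simulated data. Log2 CPM used a prior count of 0.5. RPKM, coordinates and shared 50-base stretches used GENCODE exons on GRCm38, and promoters came from RefSeq.

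The members and gene lists were chosen with earlier results of these data known. Named genes are the members, *Grhl2*, called genes of each list with abundant uncalled ones, the 5 profiles nearest to *Plch2*, its chromosomal neighbours and its neighbours in the order by evidence. *Edn1*, *Ednra*, *Ednrb*, *Krt8*, *Itpr2*, *Itpr3*, *Prkcb*, *Plcb2*, *Plcxd3*, *Plcd4* and *Plcz1* fall outside this rule and were named after their values were seen. The alternatives tried were a quasi-likelihood test in edgeR, DESeq2 1.42.0, scaling by library size or by median of ratios, no low-count filter and filterByExpr, voomWithQualityWeights, a sensory neuron covariate, a replicate block, FDR below 0.05, another gene length, another level floor for nearest profiles, and fits without 1 arch. The read ratio of the η genes within an arch was added after seeing the data. Depth was 22188454 to 28801378 counts per arch.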

Additional observations from a re-analysis of the deposited data

Results flagged for a closer look

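*Plch1* in Grhl2-/- arch 1-588 measured 50.5 CPM, far from the other 4 mutant arches, of which the next highest had 35.0 CPM. The gap took up 0.877 of the range of the group, above the critical value of 0.71 for 5 samples. This was the only such gap among 38 groups of 5 arches examined (the tested phospholipase C genes, *Grhl2*, *Cds1* and the total counts in each genotype), and chance alone flags about 1 in 20 groups. The total count of this arch, 27687225, was the median of the mutants. Without it the log2 fold change of *Plch1* was 0.89 and still passed FDR 0.01 in limma-voom. The cause was not tested.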

How the results depend on the processing

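*Plch1* passed FDR 0.01 in all 9 other fits and in all 10 that left out an arch, with log2 fold changes from 0.97 to 1.04 and from 0.89 to 1.07, and *Plch2* ranged from -4.11 to -3.86. Of the members other than *Plch2*, *Plch1* alone was called at FDR below 0.01 under each setting run, and FDR below 0.05 gave 2 higher. *Plcl2* passed in 8 of 9 other fits and in all 10 without an arch. *Cds1* passed in 6 of 9 other fits. Over all genes, DESeq2 called 553 lower and 520 higher, FDR below 0.05 gave 564 and 559, voomWithQualityWeights called 204 higher and the sensory neuron covariate left 64 higher. Leaving out 1 arch gave 110 (without wild-type 8-568) to 249 lower (without Grhl2-/- 1-588) and 42 (without wild-type 8-568) to 143 higher (without Grhl2-/- 2-566). The cause of these shifts was not tested.

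With the label number as a replicate block, 69 genes were lower and 60 higher, of which 63 and 31 were shared with the fit without it. *Plch1* stayed called (log2 fold change 1.04). *Plcl2* did not (log2 fold change -0.40, FDR = 0.0232 in limma-voom), nor did *Cds1* (log2 fold change -0.75, FDR = 0.0449 in limma-voom). The deviations of same-numbered arches correlated between -0.24 and 0.42 over 5 pairs, so the numbers were not taken as pairing, and the labels do not say what they stand for. A floor of 5 CPM removes *Cldn8* from the profiles nearest to *Plch2* by construction. Depth limits *Plch2* in the mutant, at 4 to 10 reads per arch, and intervals on so few reads cover counting error only in part.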

Other observations

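*Plcl1* and *Plcxd2*, relatives of phospholipase C outside the 10 genes, were low in the arches where sensory neuron and glia markers were low. The wild-type arches 1-566 and 1-568 and the Grhl2-/- arches 1-588 and 2-568 were the lowest of their genotypes for both. In this order their sensory neuron sums were 46.7, 39.5, 273 and 309 CPM, and their glia sums 49.1, 46.1, 77.4 and 87.9 CPM. *Plcl1* in these 4 arches measured 1.86, 2.09, 2.28 and 2.99 CPM, against 2.37 to 6.65 CPM in the other 6. *Plcxd2* measured 7.68, 6.61, 7.06 and 8.40 CPM in them, and 9.11 to 13.1 CPM in the others. For *Plcxd2* the arches so divided did not overlap, whereas the genotypes did. The arches share library and dissection with their markers, and no test was run on this division, which was seen in the data.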
